A study of Mus musculus with 9 samples.

Results

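The suppressor of cytokine signalling (SOCS) family was followed through macrophage activation and photobiomodulation (PBM). Its 8 genes in the mouse, Socs1, Socs2, Socs3, Socs4, Socs5, Socs6, Socs7 and Cish, were taken by gene symbol from the 55655 rows of the series, and all 8 were found. The family was chosen with the FPKM values of these libraries already known, so the values of its members are given here as a description and carry no test. Of the 8 members, 6 passed the minimum used for the gene-wide comparison (3 or more of the 6 M1 and M1+PBM libraries at 1 FPKM or above, where FPKM is the fragment count scaled by transcript length and library depth), and Socs2 and Cish did not.

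The libraries were RNA-seq of mouse bone marrow-derived macrophages (BMDMs), which are grown from marrow precursors with macrophage colony-stimulating factor (M-CSF). The marrow came from the femur and tibia of wild type C57BL/6 mice aged 6 to 8 weeks, and all 3 groups were matured for 7 days with 10 ng/mL M-CSF. M0 macrophages were left unpolarized and are labelled as not treated with PBM, M1 macrophages received lipopolysaccharide (LPS) and interferon-γ (IFN-γ), and the M1+PBM group received the same agents with near-infrared laser light (6 mW/cm2 for 7 minutes). There were 3 libraries in each group, and RNA of the 2 stimulated groups was taken 12 hours after PBM. The sources do not say whether the libraries of a group came from separate mice, so p-values measure only the spread between these libraries. The M0 values were deposited in a table of their own. The levels set side by side between M0 and the stimulated groups therefore cross separately made tables, they were not tested, and table and polarization cannot be told apart.

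SOCS proteins are negative feedback regulators of cytokine receptors. A cytokine activates JAK kinases on its receptor, the JAKs phosphorylate STAT transcription factors, and the STATs switch on SOCS genes, whose products bind the receptor or the JAK through an SH2 domain and recruit a ubiquitin ligase through the SOCS box. SOCS1 and SOCS3 can also block the kinase directly. SOCS1 is best known as the brake on IFN-γ and type I interferon signalling in macrophages, SOCS3 as the brake on signalling through gp130, the shared receptor chain of the IL-6 family, and on the G-CSF receptor, CIS (from Cish) and SOCS2 as inhibitors of STAT5 signalling, and SOCS4 to SOCS7 as the more divergent members, linked to growth factor and insulin receptors.

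Libraries of M0 and of M1 stood apart from the rest of their group. M0 replicate 3 held a summed FPKM of 282 over 7 M1 marker genes, against 16.3 and 18.4 in the other M0 libraries, 1932 to 2015 in M1 and 896 to 1441 in M1+PBM. The same library held 191 over 7 stromal markers (Col1a1 alone 123), against 5.62 and 6.94 in the other M0 libraries and 6.31 to 27.8 in the stimulated ones. M1 replicate 2 held 18.0 over 6 hepatocyte markers, against 0.756 to 3.61 elsewhere, with Alb at 9.01 there and listed at 0 in the other 8 libraries. All 8 macrophage markers were at an FPKM of 1 or more in every library. Of the other lists, neutrophil markers summed to 1.44 to 2.44 in M0, 8.94 to 28.1 in M1 and 6.44 to 15.05 in M1+PBM, with S100a9 and Ly6g listed at 0 in every library, and lymphoid, erythroid and dendritic cell markers summed to at most 0.870, 1.12 and 1.36. The part of these markers in the SOCS values was not tested, and values are given with and without M0 replicate 3 where they depend on it. Estimated depth was 30860000 to 41920000 fragments per library.

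The start regions of Socs1, Socs3 and Cish are printed first, because STATs and interferon regulatory factors switch on genes through short sites of the kind marked here. The RefSeq promoter windows (build GRCm38.p6, 250 bases before to 50 after the gene start) held 4 of the 8 members, namely Socs1, Socs3, Socs4 and Cish. They were searched for TTCNNNGAA, the gamma-activated sequence (GAS) to which STAT dimers bind, and for GAAA followed after any 2 bases by a second GAAA, a repeat of the interferon-stimulated response element (ISRE) type, on both strands. Capitals mark the matches, and each sequence is written 5′ to 3′ on the strand of the gene.
Socs1, the 150 bases before the start (chr16:10785537-10785686, minus strand): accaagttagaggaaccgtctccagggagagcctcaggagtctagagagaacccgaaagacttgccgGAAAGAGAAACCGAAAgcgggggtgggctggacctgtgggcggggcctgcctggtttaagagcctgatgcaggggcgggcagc
Socs3, the 200 bases before the start (chr11:117969367-117969566, minus strand): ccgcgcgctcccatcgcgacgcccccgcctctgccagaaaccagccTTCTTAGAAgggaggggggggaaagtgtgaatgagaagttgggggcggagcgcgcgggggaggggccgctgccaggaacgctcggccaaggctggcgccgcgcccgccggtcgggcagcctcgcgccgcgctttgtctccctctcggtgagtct
Cish, 30 bases that span the start (chr9:107296657-107296686, plus strand): ttTTCCTGGAAagTTCTTGGAAatctgtca

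Socs1 held 2 overlapping ISRE-type repeats, whose first bases lay 83 and 77 bases before the start, and no GAS match. Socs3 held 1 GAS match, TTCTTAGAA, whose first base lay 154 bases before the start, and no ISRE-type repeat. Cish held a pair of GAS matches, TTCCTGGAA and TTCTTGGAA, at bases 1 to 9 and 12 to 20 after the start. Socs4 held neither motif in its window. The form with 4 bases between TTC and GAA, which STAT6 prefers, was also searched, and it was in none of the 4 windows and in 6.95% of all windows. Among all 32851 windows of this length, 8.3% held a GAS match and 0.457% held 2 or more, and 3.44% held the ISRE-type repeat, with 0.225% holding 2 or more. These matches describe the letters only.

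In M0 replicates 1 and 2 the family was carried by its divergent members, while in M0 replicate 3 Socs3 held 66.5% of the summed FPKM. By group mean FPKM, a scale that divides by transcript length, Socs5 was at 6.36 ± 0.264 (SD, n = 3), Socs4 at 6.25 ± 1.74, Socs7 at 4.89 ± 0.221 and Socs6 at 2.26 ± 1.23. Socs1 (0.265 ± 0.162), Cish (0.113 ± 0.108) and Socs2 (0.0579 ± 0.0415) lay below all of these. Neighbours in this order overlapped between libraries except Socs7 over Socs6 and Socs6 over Socs1. Socs3 could not be placed in the order, because M0 replicates 1 and 2 were at 0.707 and 0.372 FPKM and M0 replicate 3 was at 34.5.

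In M1 macrophages Socs3 made up most of the family's transcript. Its share of the summed FPKM of the 8 members was 87.9% to 93.2% over the 3 M1 libraries and 88.7% to 91.4% over the M1+PBM libraries, against 1.74% and 3.09% in M0 replicates 1 and 2 and 66.5% in M0 replicate 3. The order of the M1 means was Socs3 (269 FPKM), Socs1 (14.1), Socs4 (4.72), Socs7 (4.12), Socs5 (2.62), Socs6 (1.51), Cish (0.521) and Socs2 (0.0901). Only Socs4 and Socs7 overlapped among neighbours in that order. The order of means was the same in M1+PBM, and there no neighbours overlapped.

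**Figure D1:**
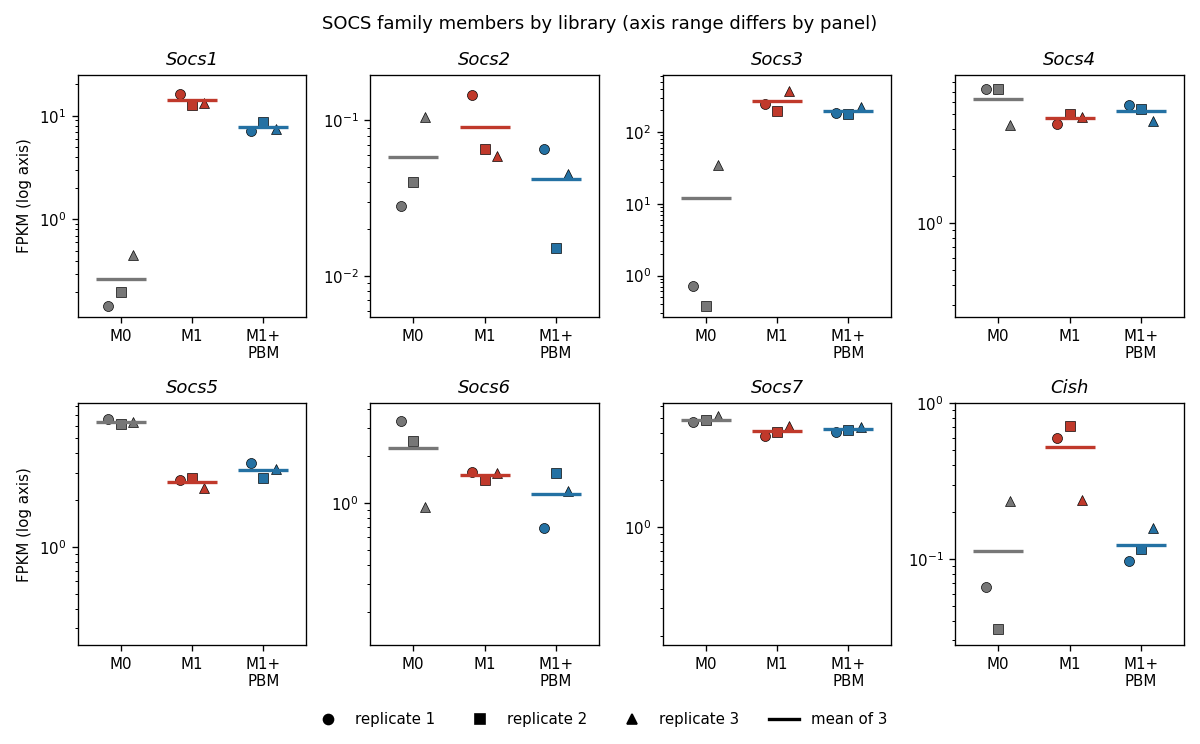
FPKM of each SOCS family member in every library, on a log axis whose range differs by panel; points are libraries (circle, square and triangle for replicates 1, 2 and 3), coloured by group, and bars are means of 3. Socs1 and Socs3 lie highest in M1, M0 replicate 3 lies far above the other M0 libraries for Socs3 (34.5 FPKM), and Socs1 and Cish in M1+PBM lie below all M1 libraries.

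Socs1 (ENSMUSG00000038037, chromosome 16), the inhibitor of interferon signalling, was at 0.145, 0.20 and 0.449 FPKM in the M0 libraries. It was at 16.3, 12.7 and 13.3 in M1. It was at 7.15, 8.78 and 7.40 in M1+PBM. The 3 groups did not overlap: every M1 library was above every M1+PBM library, and both were far above M0. The M1 mean was 14.1 ± 1.91 (SD, n = 3) and the M1+PBM mean 7.78 ± 0.876, which is 0.551 times the M1 mean. The M1 mean was 53.3 times the M0 mean, and 81.7 times without M0 replicate 3. On the log2(FPKM + 1) scale M1+PBM minus M1 was -0.78 (SE 0.13), with -1.08, -0.49 and -0.77 for replicates 1, 2 and 3, and it lay between -0.86 and -0.68 when each library was left out in turn. The M1+PBM mean of Socs1 was 29.4 times its M0 mean. The summed FPKM of the 7 M1 markers was, like Socs1, lower in M1+PBM (896 to 1441) than in M1 (1932 to 2015). The largest of them in M1, Il1b, was at a mean of 915 in M1 and 451 in M1+PBM. Nos2, Cd86, Il6 and Il1b were lower without overlap. Tnf, Cxcl10 and Cxcl9 overlapped, and the Cxcl9 mean was higher in M1+PBM (15.5 in M1, 16.9 in M1+PBM). The part of these markers in the Socs1 difference was not tested. In these bulk libraries, fewer cells that express a gene and less RNA per cell cannot be told apart.

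Socs3 (ENSMUSG00000053113, chromosome 11), the inhibitor of gp130 signalling, was the most abundant member under stimulation. It was at 243, 194 and 369 FPKM in M1 and at 182, 178 and 221 in M1+PBM. The stimulated groups overlapped, since M1+PBM replicate 3 lay above M1 replicate 2. The means were 269 ± 90.1 (SD, n = 3) in M1 and 194 ± 23.6 in M1+PBM, and the log2 difference was -0.43 (SE 0.24), with -0.42, -0.12 and -0.74 for replicates 1, 2 and 3. The value depended on single libraries: leaving out M1 replicate 3 gave -0.17, and leaving out M1 replicate 2 gave -0.63. With the replicate number as a block the difference kept its size and its SE was 0.13. Between M0 and M1 no library overlapped, but the fold rested on M0 replicate 3: the M1 mean was 22.7 times the mean of all 3 M0 libraries, 498 times the mean of replicates 1 and 2, and 7.79 times replicate 3 alone.

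Cish (ENSMUSG00000032578, chromosome 9), the STAT5-responsive inhibitor, was low in every library. It was at 0.0663, 0.0355 and 0.236 FPKM in M0, at 0.603, 0.720 and 0.239 in M1, and at 0.0969, 0.117 and 0.158 in M1+PBM. M1+PBM lay below M1 without overlap, and M1 lay above M0 without overlap, but in M1 replicate 3 (0.239) the gene was within 0.01 FPKM of M0 replicate 3. The means were 0.521 ± 0.251 (SD, n = 3) in M1 and 0.124 ± 0.0311 in M1+PBM. The values correspond to at most 5.73 to 123 fragments a library, estimated with the longest annotated transcript. Exons of Cish overlap 2 annotated genes of the opposite strand. One of them, Gm17041, was listed at 0 in every library and the other, Gm17040, reached at most 0.0474 FPKM.

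Socs2 (ENSMUSG00000020027, chromosome 10), the inhibitor of growth hormone signalling, was at 0.0281 to 0.105 FPKM in M0, 0.0589 to 0.146 in M1 and 0.0151 to 0.0660 in M1+PBM. This is at most 24.7 estimated fragments in any library, and all groups overlapped, so no difference was detectable at this depth.

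Socs4 to Socs7 made up most of the family's sum in M0 replicates 1 and 2 (21.9 of 22.9 and 20.7 of 21.4 FPKM). They were a small part of it in the stimulated groups. Their summed FPKM was 16.6 to 21.9 in M0, 12.4 to 13.3 in M1 and 13.3 to 14.0 in M1+PBM, while the sum of all 8 members went from 21.4 to 51.9 in M0 to 221 to 395 in M1 and 201 to 242 in M1+PBM. Without Socs3 the sum of the other 7 members was 26.8 to 29.5 in M1 and 20.9 to 22.8 in M1+PBM, without overlap. That gap lay mainly in Socs1 (mean 14.1 in M1 and 7.78 in M1+PBM), and the Socs4 to Socs7 sum did not fall.

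Socs5 (ENSMUSG00000037104, chromosome 17), linked to EGF receptor turnover, was lower in M1 than in M0, unlike Socs1 and Socs3. It was at 6.64, 6.12 and 6.31 FPKM in M0, 2.70, 2.78 and 2.38 in M1, and 3.45, 2.77 and 3.16 in M1+PBM. The M0 mean was 2.43 times the M1 mean, and 2.44 times without M0 replicate 3, with no overlap. M1+PBM overlapped M1 by 1 library, replicate 2, and the log2 difference was 0.19 (SE 0.10).

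Socs4 (ENSMUSG00000048379, chromosome 14), close in sequence to Socs5, was at 7.23, 7.27 and 4.24 FPKM in M0, 4.33, 5.02 and 4.81 in M1, and 5.75, 5.38 and 4.53 in M1+PBM. All groups overlapped, M0 only through replicate 3 against M1. The M1+PBM difference was 0.12 (SE 0.11).

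Socs6 (ENSMUSG00000056153, chromosome 18), linked to insulin receptor and KIT signalling, was at 3.36, 2.48 and 0.935 FPKM in M0, 1.58, 1.40 and 1.55 in M1, and 0.692, 1.54 and 1.19 in M1+PBM. M0 replicate 3 was again the library that made M0 overlap M1. The M1+PBM difference was -0.25 (SE 0.16).

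Socs7 (ENSMUSG00000038485, chromosome 11), a partner of insulin receptor substrate proteins, varied little between groups. It was at 4.70, 4.85 and 5.13 FPKM in M0, 3.83, 4.09 and 4.43 in M1, and 4.09, 4.19 and 4.40 in M1+PBM. M1 lay below M0 without overlap as deposited. The M1+PBM difference was 0.032 (SE 0.089).

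Scaling decided the direction of Socs4, Socs6 and Socs7 between M0 and M1. The median log2 difference M1 minus M0 over all 13593 genes at the minimum was -0.35 as deposited and 0.037 after median-of-ratios scaling of the 9 libraries, a shift of 0.38. Under that scaling Socs4 went from -0.31 to 0.11, Socs6 from -0.30 to 0.024 and Socs7 from -0.20 to 0.21, and Socs7 in M1 then lay above M0 without overlap. Socs5 stayed lower in M1 (-1.02 as deposited, -0.62 scaled), and Socs1 (3.58, 3.81) and Socs3 (5.90, 6.25) stayed higher under both. Without M0 replicate 3 the differences of Socs4 and Socs6 were -0.53 and -0.63.

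Against all genes, M1 lay above M0 without overlap in 3 of the 8 members as deposited (Socs1, Socs3 and Cish, of which Socs1 and Socs3 are among the genes at the minimum), where 15.3% of all 13593 genes did. M1 lay below M0 without overlap in 2 of 8 (Socs5 and Socs7), where 51.5% of all genes did. After scaling these shares of all genes were 31.5% and 25.8%. Since the members were chosen with these values known, nothing is read from the counts.

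**Figure D2:**
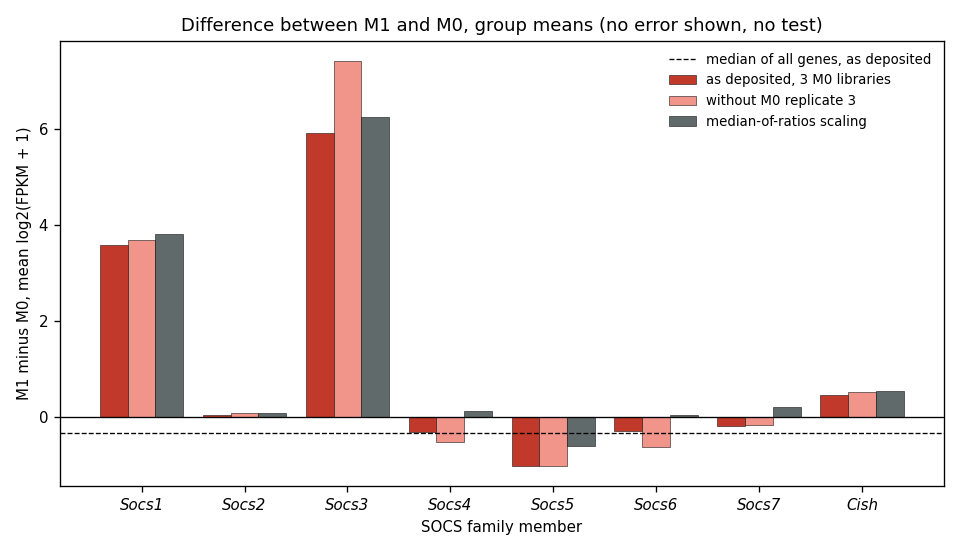
Difference M1 minus M0 of the group means of log2(FPKM + 1) for each member, as deposited, without M0 replicate 3 and after median-of-ratios scaling; the dashed line is the median of all genes as deposited (-0.35). Socs3 (5.90) and Socs1 (3.58) are the highest bars, Socs5 is below 0 in all 3 settings, and Socs4, Socs6 and Socs7 change sign with the scaling.

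For PBM, 5 of the 8 members had a lower mean in M1+PBM than in M1 (Socs1, Socs2, Socs3, Socs6 and Cish). The other 3 had a higher one (Socs4, Socs5 and Socs7). Of the 6 members at the minimum FPKM, 3 had a log2 fold change below 0 and 3 above. Of all 12238 genes tested, 34.4% were below 0. Socs7 changed side under median-of-ratios scaling, from 0.032 to -0.033. Of the 6 members in the gene-wide fit (limma), 1 lay below M1 without overlap (Socs1), where 2.52% of the 12238 genes tested did, and none above, where 8.51% did. At an unadjusted p of at most 0.05, 1 of the 6 passed (Socs1), where 4.44% of all genes passed. With the replicate number as a block 2 of the 6 passed (Socs1 and Socs3), where 8.07% of all genes passed. None passed the study's thresholds, that p together with a log2 change of 1 or more in either direction, where 0.261% of all genes did in this fit. The study does not say which test gave its own, larger set of genes, most of them higher with PBM. In this fit 29 genes were lower and 3 higher. The median log2 fold change was -0.11 over the 6 members and 0.058 over all genes tested. The members were chosen on this comparison, so these counts are no evidence about them.

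**Figure D3:**
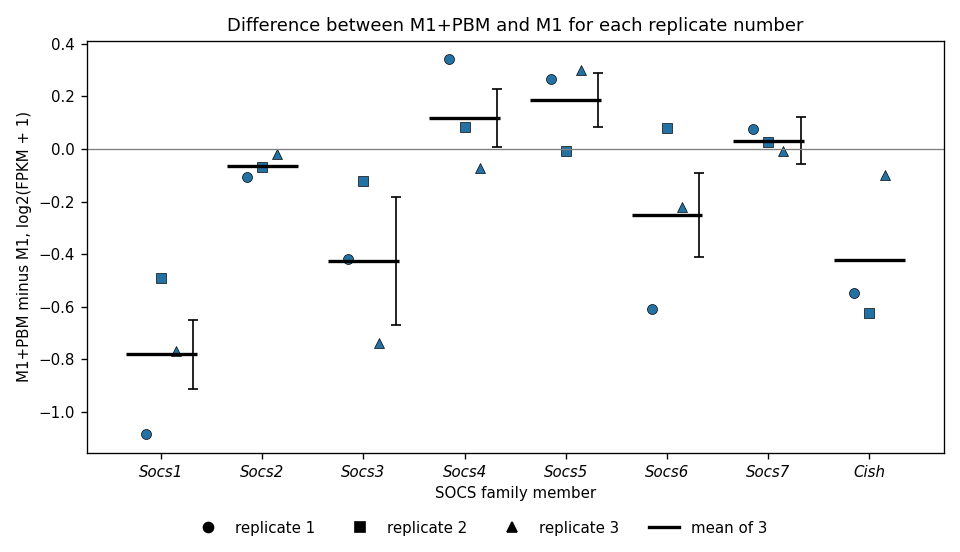
Difference M1+PBM minus M1 in log2(FPKM + 1) for each member; points are the 3 replicate numbers, bars their mean, and error bars the SE of the limma fit (none for Socs2 and Cish, which were not fitted). All 3 points lie below 0 for Socs1, Socs2, Socs3 and Cish, and Socs1 has the lowest mean on this scale (-0.78). The scale understates changes of low genes: with 0.1 added in place of 1, Cish was at -1.38 and Socs1 at -0.85.

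The genes on which SOCS proteins act were counted over lists of the JAK-STAT pathway. These lists were chosen with earlier results of these data known, so the counts are a description. Of 102 listed genes 82 were tested, and 6 passed an unadjusted p of 0.05 (7.32%, beside the 4.44% of all genes tested), 4 lower and 2 higher in M1+PBM, where 1.45% of all genes were lower and 2.99% higher. None passed after Benjamini-Hochberg adjustment over all genes (adjusted p = 0.90 in limma for each of those named here), where 0.00817% of all genes did, and none of the SOCS members did. With the replicate block 14 passed, 9 lower and 5 higher, where 3.24% of all genes were lower and 4.84% higher. Over all genes the same p gave 177 lower and 366 higher as deposited, but 283 lower and 234 higher after median-of-ratios scaling.

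The 4 lower genes all encode cytokines. All 10 cytokine genes tested had a log2 fold change below 0 (34.4% of all genes), with a median of -0.83. Of these, 4 passed (40%, where 4.44% of all genes did). With the replicate block, where 8.07% of all genes passed, 6 cytokine genes did, Il10 and Il12a being added. Il6, the ligand that signals through gp130, was at 20.6 ± 5.27 FPKM (SD, n = 3) in M1 and fell to 3.97 ± 3.09 with PBM, a log2 fold change of -2.29 (SE 0.47). Csf1, which encodes M-CSF, fell from 6.18 ± 0.848 to 4.44 ± 0.404 (-0.40, SE 0.12). Osm, which encodes oncostatin M and is also a STAT5 target, fell from 3.42 ± 1.63 to 1.76 ± 0.182 (-0.62, SE 0.24). Il6 passed under all 10 alternative settings. Csf1 did not pass without M1+PBM replicate 1 (-0.33), and Osm did not pass with no minimum FPKM or when any 1 of the M1+PBM libraries was left out and was at -0.34 without M1 replicate 1. The fourth, Csf3, which encodes G-CSF, overlapped between groups (3.60 to 45.6 in M1, 1.71 to 3.77 in M1+PBM), did not pass under 5 of the 10 settings, each of which left out a library (-1.43 without M1 replicate 1), and is named after its values were seen. The IFN-γ gene Ifng reached at most 0.0288 FPKM in any library.

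Among 18 receptor genes tested, 1 passed (5.56%, near the 4.44% of all genes that did). Ifngr1, the ligand-binding chain of the IFN-γ receptor, rose from 7.90 ± 0.715 FPKM in M1 to 12.4 ± 1.57 in M1+PBM (log2 fold change 0.58, SE 0.12), and it passed under all 10 alternative settings. In M0 it was at 22.5 ± 2.75. Its M1+PBM libraries (12.4, 10.8 and 13.9) thus lay between M1 and M0 without overlapping either. Il6st, which encodes gp130, was at 21.1 in M0, 5.19 ± 1.57 in M1 and 7.27 ± 1.33 in M1+PBM and did not pass. Its partner Il6ra passed only with the replicate block (unadjusted p = 0.018 in limma, log2 fold change 0.43). This made 2 of the 18 receptor genes that passed with the block, where 8.07% of all genes did. Genes called only under the block, and Il6st, are named after their values were seen.

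None of the 4 JAK genes passed, and Stat2, Stat3, Stat5a, Stat5b and Stat6 did not pass. Jak2 was at 6.89 ± 2.49 FPKM in M0, 73.3 ± 8.63 in M1 and 61.6 ± 11.5 in M1+PBM. Jak1 (32.4, 40.2 and 39.5 in M0, M1 and M1+PBM), Jak3 (4.66, 8.75 and 9.51) and Tyk2 (16.7, 37.4 and 35.3) were within a log2 difference of 0.13 between the stimulated groups. Stat3, the factor downstream of gp130, was at 10.0 ± 1.49, 38.8 ± 16.0 and 27.2 ± 2.48 in M0, M1 and M1+PBM (log2 fold change -0.43, SE 0.28). Stat2 was at 12.3, 118 and 113, Stat5a at 4.67, 7.83 and 7.46, Stat5b at 12.5, 10.1 and 11.1, and Stat6 at 57.3, 44.5 and 47.7. Stat4 stayed under 1 FPKM in all libraries and was not tested.

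Socs3 was also set against Stat3, whose pathway it inhibits. The ratio of Socs3 to Stat3 FPKM was 7.15, 7.55 and 6.50 in M1 and 7.14, 6.83 and 7.35 in M1+PBM, so the groups overlapped and the spread within M1 was larger than the gap between the groups. In M0 it was 0.0752 and 0.0417 in replicates 1 and 2 and 2.95 in replicate 3. This ratio is a description with no test.

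**Figure D4:**
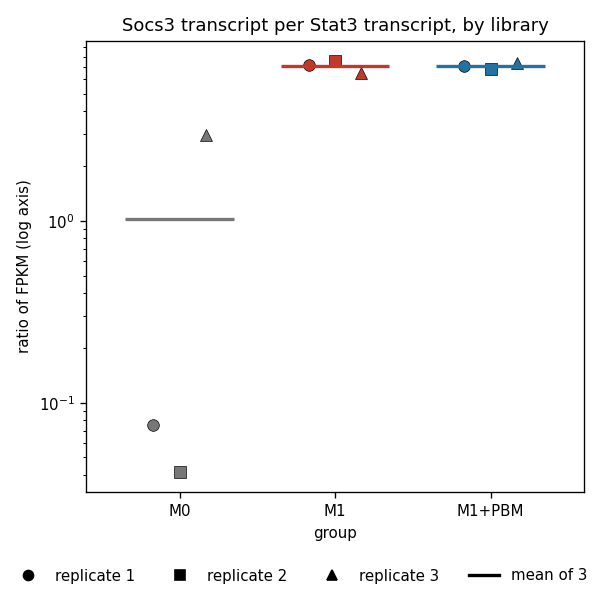
Ratio of Socs3 to Stat3 FPKM in every library, on a log axis; points are libraries and bars group means. The M1+PBM libraries (6.83 to 7.35) lie among the M1 libraries (6.50 to 7.55), and M0 replicate 3 (2.95) lies far above the other M0 libraries.

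None of the 10 STAT3 targets and none of the 3 STAT6 targets tested passed without the block. Of 6 STAT5 targets 1 passed, Osm (16.7%, where 4.44% of all genes did). With the replicate block 2 STAT3 targets passed, Il1rn (log2 fold change -0.34) and Nfil3 (-0.50), and 2 STAT5 targets, Osm and Ccnd1 (0.88). Of all genes 8.07% passed with the block. Of the 12 other JAK-STAT inhibitors 1 passed, Pias3 (8.33%, where 4.44% of all genes did). Pias3, an inhibitor of STAT3, rose from 2.18 ± 0.183 to 2.92 ± 0.396 FPKM (log2 fold change 0.30, SE 0.11). It did not pass after median-of-ratios scaling (0.24) or without M1 replicate 1, M1 replicate 2, M1+PBM replicate 1 or M1+PBM replicate 3. With the block 2 of the 12 passed, Pias3 and Ptprc, where 8.07% of all genes did. The 6 subunits of the SOCS box ligase (elongins, cullins and RING proteins) had a median of 0.065, and none passed. Among 13 feedback inhibitors of other inflammatory pathways 12 had a log2 fold change below 0 (median -0.22), where 34.4% of all genes did, and 2 passed (15.4%, where 4.44% of all genes did): Tnfaip3, which encodes the NF-κB inhibitor A20, fell from 45.4 ± 8.06 to 29.3 ± 7.89 FPKM (-0.63, SE 0.21), and Trib1, a pseudokinase named after its values were seen, rose (0.47, SE 0.18) with overlapping groups. Tnfaip3 did not pass without M1 replicate 3, M1+PBM replicate 1 or M1+PBM replicate 3, and Trib1 passed under 4 of the 10 settings only. With the block 3 of the 13 passed, Atf3 being the third, where 8.07% of all genes did.

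**Figure D5:**
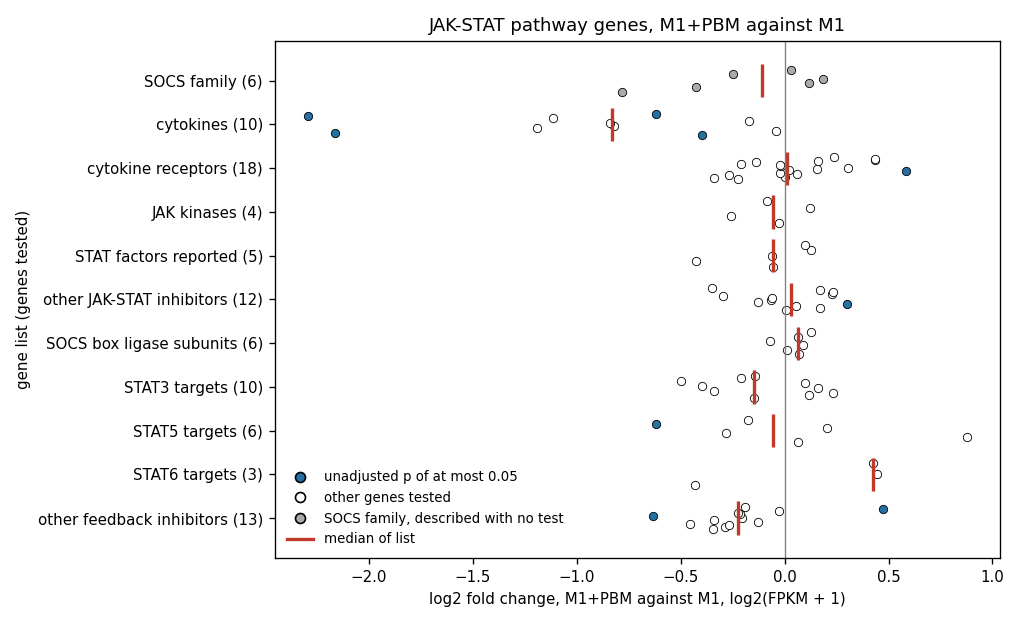
Log2 fold change of M1+PBM against M1 for each gene tested, by list, with the number tested in brackets; filled blue points have an unadjusted p of at most 0.05, grey points are the SOCS members (no test), and red lines are list medians. The cytokines lie left of 0 with a median of -0.83. The medians of the JAK, STAT and SOCS box ligase genes lie near 0, with Stat3 at -0.43 and Jak2 at -0.26.

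The genes most like the 3 leading members in profile were found among 13630 genes by the root mean square (RMS) difference in centred log2(FPKM + 1) over the 9 libraries. Nearest to Socs3 were the interferon-induced genes Ifit3 (RMS 0.49), Isg15 (0.50) and Irf7 (0.51). Like Socs3 they had their highest M0 value in replicate 3 (33.9, 36.4 and 13.8 FPKM). The search used that library, so a high value there is part of the match. Means in M1 and M1+PBM were 510 and 524 for Ifit3, 693 and 566 for Isg15, and 214 and 189 for Irf7. Nearest to Socs1 were a processed pseudogene, AC122306.1 (0.18), Prdx5, which encodes a peroxiredoxin (0.19), and Hdc, which encodes histidine decarboxylase (0.27). Prdx5 was at 27.3 FPKM in M0, 264 in M1 and 201 in M1+PBM. Nearest to Socs5 were Abhd14b (0.048), the pseudogene Rps16-ps2 (0.051) and R3hdm1 (0.058). The scale understates changes of low genes, so near profiles can differ in fold. Hdc was at 0.0169 FPKM in M0 and 10.9 in M1, and Abhd14b at 1.85 and 0.409. Counts of pseudogenes can share reads with their parent genes and are uncertain.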

How the data were processed

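RNA-seq values were used as deposited: the authors gave FPKM per gene, computed with Cufflinks methods, in 2 tables of 55655 rows (M1 with M1+PBM, and M0). The submitters' processing notes name Bowtie 0.12.2 and the build mm9, with no role. Strand-specific libraries were made, but whether counting used strand is not given in the sources used here. Groups came from the sample titles, and symbols from GENCODE M21 (55154 rows matched). No raw counts were used. Low values fell on whole fragments in 43.9% to 50.9% of cases (within 0.05; 10% if evenly spread), so reads were not recovered and the depth is an estimate.

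The difference between M1+PBM and M1 was fitted in limma 3.58.1 (R 4.3.3; lmFit and eBayes with trend) on log2(FPKM + 1), which understates changes of low genes, over 12238 rows that reached 1 FPKM in 3 or more of 6 libraries, with Benjamini-Hochberg adjustment over all rows. M0 entered no test. Exact permutation of 3 against 3 libraries cannot go below p = 0.1 and was not used. The main fit did not pair the libraries, and its SEs and calls are the ones given unless the block is named. Same-numbered libraries of M1 and M1+PBM deviated together (r = 0.16, 0.47 and 0.46 across 12238 genes, against -0.49 to 0.033 for other pairs). This is a hint from the data and not from the labels, so the fit with replicate number as a block was run as an alternative. The fit was tested on simulated data in which 200 genes had log2 changes of 1.5 to 3. At the study's thresholds it recovered 98.5% of them and also called 39 unchanged genes, while 32 genes passed in the real data. Smaller changes, such as those of the members, were not simulated.

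The members and gene lists were chosen with earlier results of these data known. Named genes were all 8 members, JAK and STAT genes (1 of which is not reported here), up to 4 genes a list with an unadjusted p of at most 0.05 and no overlap between groups, the 3 nearest genes by profile of 3 members, and markers that check a label. Alternatives were pseudocount 0.1, no minimum, median-of-ratios scaling, the block and leaving out each library. Promoter sequences came from RefSeq (GRCm38.p6), not from the build of the files.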

Additional observations from a re-analysis of the deposited data

How the results depend on the processing

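The count of genes past the study's thresholds (32) was 75 with pseudocount 0.1 and 27 to 89 when each library was left out (69 without M1 replicate 2, 89 without M1+PBM replicate 2). The count at an unadjusted p of at most 0.05 alone (543) was 1318 with no minimum FPKM, 988 with the replicate block and 259 to 1089 when each library was left out (over 1.5 times the reported count without M1 or M1+PBM replicate 2, and under it by as much without M1 replicate 1 and M1+PBM replicates 1 and 3). The JAK-STAT pathway count (6) was 14 with the replicate block and 3 to 17 when each library was left out (17 without M1 replicate 2, the library with hepatocyte markers, 11 without M1+PBM replicate 2, and 3 without M1+PBM replicate 1 or 3). The count past the adjusted p was 1 as reported and under all 10 alternatives. The cause of these shifts was not tested, and among the members the block changed the call of Socs3 and of no other.

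The count of members lower in M1+PBM (5) was 5 or 6, and the count of members higher in M1 than in M0 (4) was 3 to 6. At an unadjusted p of at most 0.05, Cish passed with no minimum FPKM, Socs3 passed without M1 replicate 2 and Socs6 without M1+PBM replicate 2, each besides Socs1, which was past it in all 10 alternatives. The members were chosen with these values known, so these passes are no evidence about them. With pseudocount 0.1 the M1+PBM differences of Socs2 and Cish were -0.41 and -1.38. Groups of 3 libraries limit all errors, and the low members Socs2 and Cish are limited by depth.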
